A study of Mus musculus with 6 samples.

Results

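The Tcf/Lef transcription factors, their co-activator β-catenin and the feedback genes of the canonical Wnt pathway were compared between wild-type (WT) and Smad2/3 double knockout (DKO) epiblast-like cells (EpiLCs), which model the post-implantation epiblast of the mouse embryo. The 10 genes were taken as a named set: the DNA-binding factors Tcf7, Tcf7l1, Tcf7l2 and Lef1, β-catenin (Ctnnb1), and the feedback genes Axin2, Sp5, Nkd1, Rnf43 and Znrf3. They are 10 of 24288 gene symbols in the expression table, each represented by the annotated transcript with the highest total. All 10 passed the filter on low reads and were among 17038 genes tested.

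Canonical Wnt ligands act by stopping the destruction complex from degrading β-catenin, which then enters the nucleus and binds Tcf/Lef proteins on DNA. Without β-catenin these proteins recruit co-repressors, and Tcf7l1 in particular acts mainly as a repressor in pluripotent cells, whereas Tcf7 and Lef1 are known mainly for activation. Wnt target genes include several negative regulators of the pathway, so that signalling limits itself. Smad2 and Smad3 are the transcription factors that carry Nodal and activin signals, which the epiblast needs for mesoderm and endoderm formation.

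Total RNA was sequenced from day 2 EpiLCs of 2 genotypes, with 3 libraries each. The WT cells were the CCE embryonic stem cell (ESC) line and the DKO cells were clone KT15.1F6, in which the Smad3 promoter had been targeted in ESCs already homozygous for a Smad2 null allele, and both had the strain background 129/Sv//Ev. ESCs of both genotypes had been kept with the Mek inhibitor PD0325091 at 1 µM, LIF at 1000 U/ml and CHIR99021 at 3 µM, an inhibitor of Gsk3 that itself stabilizes β-catenin, and were then grown for 48 h on fibronectin in N2B27 with 12 ng/ml Fgf2, 20 ng/ml activin A and 1% KSR. The 3 libraries of a genotype came from independent differentiations of 1 line, so the p-values measure the spread between differentiations, and genotype and clone cannot be told apart.

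The libraries held 57644143 to 63046034 reads over all genes. Values are reads per gene body divided by a size factor per library, termed normalized reads, and fold changes are on the scale of log2(normalized reads + 1), DKO against WT, ± standard error (SE), with adjusted p from limma. A gene was called changed at an adjusted p under 0.05 with a fold over 1.5. Smad3, the targeted gene, fell from 839 ± 37.0 to 23.6 ± 6.16 normalized reads (SD, n = 3 each). Smad2 stood at 4520 ± 86.3 in WT and 5062 ± 109 in DKO, so the count over its gene body did not check the Smad2 allele.

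Of the 10 genes, 2 were called changed, Tcf7l1 and Sp5, and both were lower in DKO. Over all genes tested 15.4% were called, 7.35% higher and 8.04% lower. At the adjusted p alone 8 of the 10 genes passed, 3 higher and 5 lower, where 53.4% of all genes passed, 26.9% higher and 26.5% lower. The values of the genotypes did not overlap for 8 of the 10 genes, as for 59.0% of all genes. The median log2 fold change of the 10 genes was -0.06, beside 0.00 over all genes. The genes therefore moved in both directions, mostly by less than 1.5-fold. In bulk RNA, fewer cells of a type and less RNA per cell cannot be told apart.

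**Figure D1:**
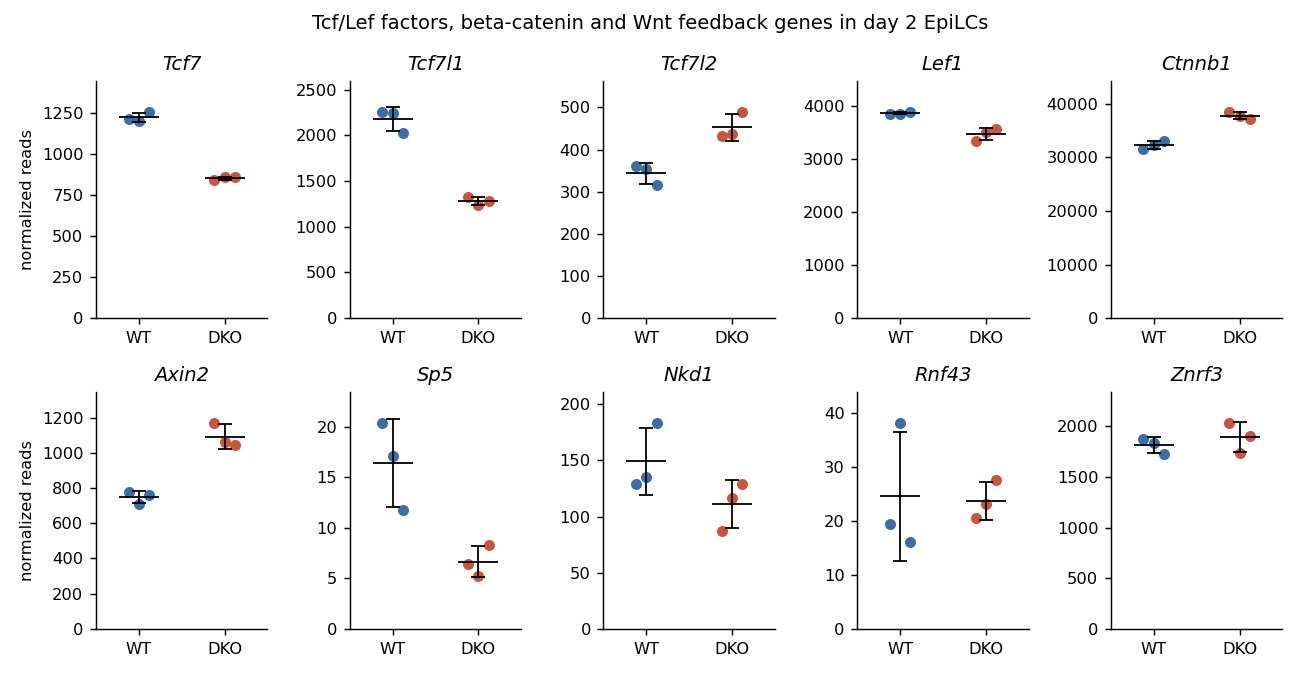
Normalized reads (linear axis from 0) of each of the 10 genes in the 3 WT libraries (blue) and the 3 DKO libraries (red), with the mean and SD in black. Groups are apart for all genes but Rnf43 and Znrf3. The mean changed most relative to WT for Sp5, which fell to 40.6% of WT at very low reads. Its lowest WT value was 11.7 and its highest DKO value 8.29.

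Tcf7l1 (NM_009332, minus strand, chr6:72626378-72789254 in mm10), formerly Tcf3, is the main Tcf/Lef repressor of ESCs. It stood at 2255, 2247 and 2021 normalized reads in WT and at 1323, 1242 and 1277 in DKO. Every DKO library lay well below every WT library, at 58.9% of WT on average. The log2 fold change was -0.76 ± 0.04 (adjusted p 2.24e-14, limma), and it was the single member still called when the test was made against the fold of 1.5 itself (adjusted p 0.00291, limma treat).

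Tcf7l1 lies in a stretch of chromosome 6 whose limits were set from earlier fold changes of these data, so that counts within it are a description and test nothing. It spanned 7.21 Mb and held 32 genes averaging 100 or more normalized reads, of which 32 were lower in DKO and 26 were called lower, where 8.04% of all genes were. The other 31 genes had a median log2 fold change of -0.91 (range -1.60 to -0.16), and 21 of them had a lower value than Tcf7l1, which stood 0.15 above that median. The 7 genes before the stretch and the 7 after it had medians of -0.09 and -0.14. As the limits were set from these data, this contrast is a description too. The drop of Tcf7l1 lay within the range of the other 31 genes of the stretch.

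The nearest genes on either side belong to none of the pathway lists described below. On the side of lower coordinates these were Tgoln1 (-0.94), a trans-Golgi protein, Retsat (-1.04), a retinol saturase, and Elmod3 (-0.84). On the other side they were Kcmf1 (-0.95), a ubiquitin ligase, Tmsb10 (-0.68), an actin-binding thymosin, and Suclg1 (-0.95), a subunit of succinyl-CoA ligase. All 6 were called lower. Among the 14 genes nearest to Tcf7l1, 7 on each side, 13 were lower and 9 were called lower, with a median of -0.76. For the other 9 members the median of the 14 nearest genes lay between -0.07 and 0.11, so Tcf7l1 was the one member whose surroundings were lowered.

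**Figure D2:**
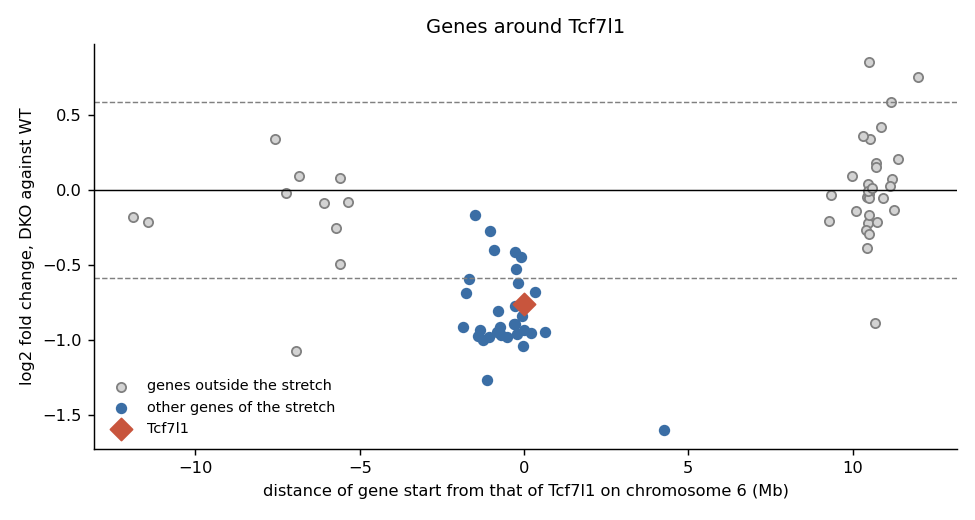
Log2 fold change (DKO against WT) of genes averaging 100 or more normalized reads, plotted by the distance in Mb of their start from that of Tcf7l1 on chromosome 6; dashed lines mark a fold of 1.5. The 32 genes of the stretch, which was chosen for its lowered genes, all lie below 0, and Tcf7l1 (red diamond) at -0.76 lies within the range of the other 31.

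Tcf7 (NM_009331, minus strand, chr11:52252371-52282571), a factor that activates Wnt targets with β-catenin and is itself a Wnt target in several tissues, stood at 1216, 1205 and 1259 normalized reads in WT. In DKO it stood at 843, 861 and 859. The groups were far apart relative to their spread, with DKO at 69.6% of WT. The log2 fold change was -0.52 ± 0.04 (adjusted p 5.51e-11, limma), under the fold threshold, and the 14 nearest genes had a median of -0.01. Its gene body shares 17144 bases with the lincRNA Gm26551 on the same strand, whose reads were not separated.

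Lef1 (NM_010703, plus strand, chr3:131110471-131224356), the other mainly activating factor, changed least of the 4. It stood at 3846, 3858 and 3889 normalized reads in WT and at 3343, 3503 and 3563 in DKO. All DKO libraries were lower, by a margin that exceeded the spread of either group. The log2 fold change was -0.16 ± 0.03 (adjusted p 9.89e-05, limma).

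Tcf7l2 (NM_001142918, plus strand, chr19:55742332-55933654), known from the intestinal crypt and as a diabetes risk gene, was the one family member that was higher in DKO. It stood at 360, 355 and 316 normalized reads in WT and at 432, 438 and 489 in DKO. The groups did not overlap, and the log2 fold change was 0.40 ± 0.07 (adjusted p 2.31e-05, limma), under the fold threshold. A shorter annotated form of Tcf7l2 covers the last 37.7 kb of the gene. Over that span the reads rose from 97.4 to 146, a ratio of 1.50, beside a ratio of 1.25 over the rest of the gene body.

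Levels of different genes were compared per kb of gene body. In WT the order within the family was Tcf7 (40.6 normalized reads per kb), Lef1 (33.9), Tcf7l1 (13.3) and Tcf7l2 (1.80). In DKO it was Lef1 (30.5), Tcf7 (28.3), Tcf7l1 (7.86) and Tcf7l2 (2.37). No neighbours in either order overlapped between libraries, so Lef1 took the place of Tcf7 as the most abundant factor on this scale. The summed level of the 4 fell from 89.7 ± 0.230 to 69.0 ± 1.25 normalized reads per kb (SD, n = 3), a ratio of 0.769 (exact permutation test, two-sided p = 0.1, the smallest p that 3 against 3 libraries allow).

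The make-up of that sum shifted as well. The share of Tcf7l1 went from 14.9% to 11.4% and that of Tcf7 from 45.3% to 41.0%. The share of Lef1 went from 37.8% to 44.2% and that of Tcf7l2 from 2.00% to 3.43%. Each share differed without overlap between the genotypes (exact permutation p = 0.1 each). Per kb of exon the differences had the same signs, but Lef1 led and Tcf7l1 stood above Tcf7 in both genotypes, with 715 against 496 normalized reads per kb of exon in WT.

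Ctnnb1 (NM_007614, plus strand, chr9:120933400-120960507) encodes β-catenin, which serves both as the Wnt co-activator and as a link between cadherins and the cytoskeleton. It was the most abundant member, at 31554, 32361 and 32973 normalized reads in WT and 38467, 37798 and 37095 in DKO. All DKO libraries were higher, by 0.23 ± 0.02 on the log2 scale (adjusted p 2.12e-09, limma). The difference was small in fold but clear against the spread. These are RNA levels, and β-catenin activity is set mainly by protein stability, which was not measured.

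Among the feedback genes Axin2 and Sp5, both widely used as readouts of Wnt signalling, moved in opposite directions. Their promoters are shown because these transcripts carry that contrast, as the 250 bases upstream of each start in GRCm38.p6 (RefSeq), 5′ to 3′, both on the plus strand. Capitals mark a match to the Tcf/Lef motif CTTTGAA or CTTTGAT, searched on both strands.
Sp5 (chr2:70474673-70474922): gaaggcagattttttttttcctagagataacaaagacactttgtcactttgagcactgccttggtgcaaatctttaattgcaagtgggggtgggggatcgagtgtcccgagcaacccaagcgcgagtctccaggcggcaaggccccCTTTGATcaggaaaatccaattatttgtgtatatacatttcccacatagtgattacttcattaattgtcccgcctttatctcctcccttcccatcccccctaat
Axin2 (chr11:108920099-108920348): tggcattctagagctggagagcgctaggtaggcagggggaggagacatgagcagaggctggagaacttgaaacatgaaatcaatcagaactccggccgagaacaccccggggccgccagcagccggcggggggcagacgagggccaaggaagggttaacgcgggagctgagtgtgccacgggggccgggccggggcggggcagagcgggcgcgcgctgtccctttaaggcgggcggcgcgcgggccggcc
The Sp5 window held 1 match, CTTTGAT, starting 104 bases upstream of the start, and the Axin2 window held none. Windows of 300 bases, 250 before and 50 after the start, were found for 9 of the 10 genes, with 16 windows in all, and the Sp5 match was the one match among them. Over all 32851 promoter windows 8.65% held the motif. Sequence outside these windows and other forms of the motif were not searched, and whether the match bears on either gene was not tested. The bases were 46% G or C upstream of Sp5 and 69.2% upstream of Axin2.

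Axin2 (NM_015732, plus strand, chr11:108920349-108950783) encodes a scaffold of the destruction complex that is induced by Wnt in most tissues. It stood at 777, 710 and 763 normalized reads in WT and at 1172, 1060 and 1046 in DKO. Every DKO library lay above every WT library, and the ratio was 1.46. The log2 fold change of 0.54 ± 0.05 (adjusted p 8.42e-10, limma) lay just below the fold threshold of 0.58, with a 95% interval of 0.44 to 0.64. Axin2 was the most raised of the 10 genes, and per kb of gene body it lay below Lef1 and Tcf7 in WT (24.6 normalized reads per kb) and above both in DKO (35.9). Per kb of exon it lay below both in each genotype, at 176 in WT and 256 in DKO.

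Sp5 (NM_022435, plus strand, chr2:70474923-70477729) encodes a zinc-finger repressor of the Sp family, induced by Wnt in the primitive streak. It stood at 20.4, 17.1 and 11.7 normalized reads in WT and at 6.46, 5.25 and 8.29 in DKO. The lowest WT library was above the highest DKO library. The log2 fold change was -1.17 ± 0.33 (adjusted p 0.00403, limma), the largest in size of the 10, and its 95% interval was wide, from -1.85 to -0.49.

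The depth behind Sp5 was low. The libraries held 10 to 38 reads of Sp5, all 6 of them even numbers, and 75.3% of all counts from 4 to 40 in the table were even, so both reads of a pair may have been counted and fragments may be fewer than reads. With a pseudocount of 10 the log2 fold change of Sp5 was -0.65, and against the fold of 1.5 itself it had an adjusted p of 0.484 (limma treat). The 3 genes whose log2 values followed Sp5 most closely over the 6 libraries were Aig1 (Pearson r 0.998), Ftx (0.996) and Pard3b (0.994). As 1052 of 11855 genes had an r over 0.9, and the 6 libraries fall into 2 genotypes, this is a description only.

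**Figure D3:**
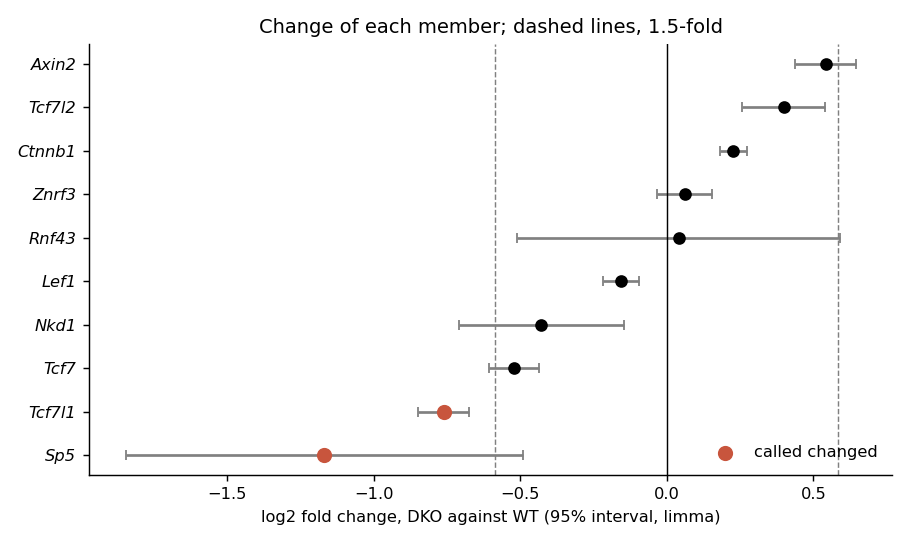
Log2 fold change (DKO against WT, limma) of the 10 genes with 95% intervals; dashed lines mark a fold of 1.5 and red points the genes called changed. Sp5 (-1.17) and Tcf7l1 (-0.76) lie beyond the lower line, and Axin2 (0.54) lies just inside the upper one.

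Nkd1 (NM_027280, plus strand, chr8:88521354-88593618) encodes a Dishevelled-binding inhibitor of the pathway. It stood at 129, 135 and 183 normalized reads in WT and at 87.2, 117 and 129 in DKO. The groups touched without overlapping, since the lowest WT value was 128.9 and the highest DKO value 128.5. The log2 fold change was -0.43 ± 0.14 (adjusted p 0.0102, limma). It was -0.27 without WT replicate 3 (adjusted p 0.114, limma) and -0.27 without DKO replicate 1 (adjusted p 0.0924, limma). The adjusted p thus lay under 0.05 only with both of those libraries.

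Rnf43 and Znrf3 encode related membrane ubiquitin ligases that remove Frizzled receptors from the cell surface and are held in check by R-spondins acting through Lgr receptors. Rnf43 (NM_172448, plus strand, chr11:87663087-87735538) stood at 19.3, 38.1 and 16.0 normalized reads in WT and at 20.5, 23.1 and 27.5 in DKO. The groups overlapped, and the log2 fold change was 0.04 ± 0.27, with a 95% interval of -0.51 to 0.59 that covers most changes under 1.5-fold in either direction. Without WT replicate 2, the highest library, it was 0.40 (adjusted p 0.225, limma).

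Znrf3 (NM_001080924, minus strand, chr11:5276324-5444847) was read far more deeply. It stood at 1875, 1838 and 1723 normalized reads in WT and at 2036, 1735 and 1910 in DKO. The groups overlapped, and the log2 fold change was 0.06 ± 0.05 (95% interval -0.03 to 0.16, adjusted p 0.265, limma). Without DKO replicate 2 it was 0.12 with an adjusted p of 0.0266 (limma).

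The Znrf3 total covered 2 opposite differences between parts of the gene. A shorter annotated form (NM_001290501, chr11:5278602-5381740) leaves out 63107 bases at the 5′ side of the longer one and 2278 bases at its 3′ end. Over the shorter span there were 1105, 1027 and 1032 normalized reads in WT and 1367, 1251 and 1341 in DKO. The groups did not overlap there, and the ratio was 1.25 and the log2 fold change 0.32 ± 0.04 (adjusted p 4.12e-07, limma over all 25361 rows tested). Over the rest of the gene body there were 770, 811 and 691 normalized reads in WT and 669, 484 and 568 in DKO. These did not overlap either, and the ratio was 0.758. Reads at the 5′ side and at the 3′ end were not separated. The rest of the gene body thus made up 41.8% of Znrf3 reads in WT and 30.3% in DKO, a difference that was not tested as such.

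In Lef1 and Ctnnb1 the annotated forms did not part in this way. The shorter form of Lef1 had a ratio of 0.906 and the remaining 2326 bases a ratio of 0.855. For Ctnnb1 the bases outside the shorter form held 83.9 normalized reads in WT and 84.5 in DKO, too few to move the total.

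**Figure D4:**
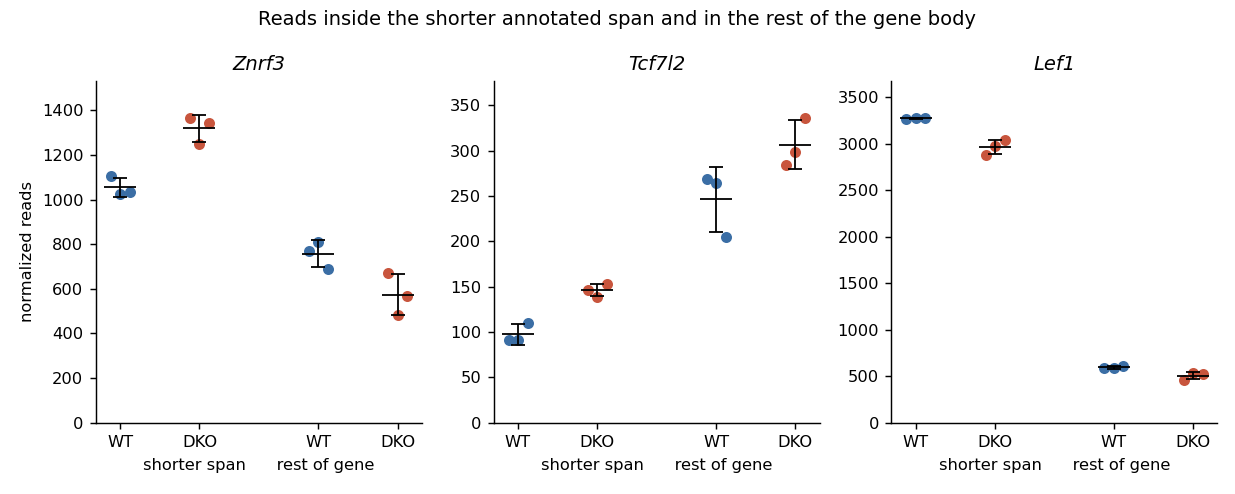
Normalized reads (linear axes from 0) of Znrf3, Tcf7l2 and Lef1 over their shorter annotated span and over the rest of the gene body, per library in WT (blue) and DKO (red), with mean and SD in black. For Znrf3 the shorter span is higher in DKO (ratio 1.25) and the rest lower (0.758), for Tcf7l2 both are higher, and for Lef1 both are lower.

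The other genes of the pathway were described in 6 lists of 86 genes, of which 84 were tested. In all 16 were called, 7 higher and 9 lower, which is 19% beside 15.4% of all genes. The lists were chosen with earlier results of these data known, so the shares called in them are a description and test nothing. The cytoplasmic machinery that acts on β-catenin differed little. Of 18 genes of the destruction complex and the Dishevelled family 0 were called, with a median log2 fold change of -0.06. At the adjusted p alone 10 of the 18 passed, where 53.4% of all genes passed (limma). Of 23 nuclear partners of Tcf/Lef and β-catenin 1 was called, the co-activator Bcl9l, which rose by 0.79 ± 0.08 (adjusted p 1.57e-09, limma).

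Other known Wnt target genes were called in both directions. Of 13 tested genes 8 were called (61.5%, beside 15.4% of all genes), 4 higher and 4 lower. As the list was chosen with earlier results of these data known, this share is a description only. The receptor Tnfrsf19 rose from 980 ± 36.4 to 3093 ± 90.1 normalized reads (log2 fold change 1.66). Ascl2 (1.59), Cdx2 (1.50) and Cdx4 (1.21), transcription factors known from trophoblast or the posterior embryo, rose as well, the last at low reads and with overlapping groups. T (-1.55), the mesoderm factor Brachyury, and Nkd2 (-0.73), the homologue of Nkd1, fell, as did Apcdd1 (-0.67) and Myc (-0.59), which are named after their values were seen. The calls of Cdx4 and Myc were lost in some alternatives: Cdx4 with DESeq2 (1.06), without WT replicate 2 (0.66) or without DKO replicate 2 (1.09), and Myc in 4 of 17, where it lay just under the fold threshold. The cell cycle gene Ccnd1 stood at -0.01. Dkk4 and Cdx1 were not tested, the former at 0 reads in all libraries. The Wnt targets thus did not share a direction, as the feedback genes did not.

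Pluripotency genes known to be restrained by Tcf7l1 were examined beside its lower level. Of 5 genes 2 were called, both higher (40%, beside 15.4% of all genes called and 7.35% called higher), and all 5 passed the adjusted p alone, as did 53.4% of all genes (limma). Klf2 rose from 445 ± 33.3 to 959 ± 36.0 normalized reads (log2 fold change 1.11) and Tfcp2l1 by 0.79. Nr0b1 (0.30), Esrrb (0.18) and Nanog (-0.32) were not called, and the last of these lay in the opposite direction. Whether the level of Tcf7l1 bears on these genes was not tested.

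Of 7 junction partners and homologues of β-catenin 3 were called, all lower (42.9%, beside 15.4% of all genes). N-cadherin (Cdh2, -0.79), P-cadherin (Cdh3, -0.62) and the α-catenin gene Ctnna2 (-1.60) fell, and Ctnna2 lies in the same stretch of chromosome 6 as Tcf7l1. Jup, the homologue of β-catenin in this list, was not called but lay in the opposite direction (0.48, adjusted p 5.45e-12, limma). Of 19 Wnt receptors and R-spondins 2 were called, both lower (10.5%, under the 15.4% of all genes). Lgr4, a receptor for R-spondins and thereby a regulator of Rnf43 and Znrf3, went from 13959 ± 147 normalized reads down to 3762 ± 45.9, a log2 fold change of -1.89, and the receptor Fzd10 fell by 0.94 on the log2 scale.

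**Figure D5:**
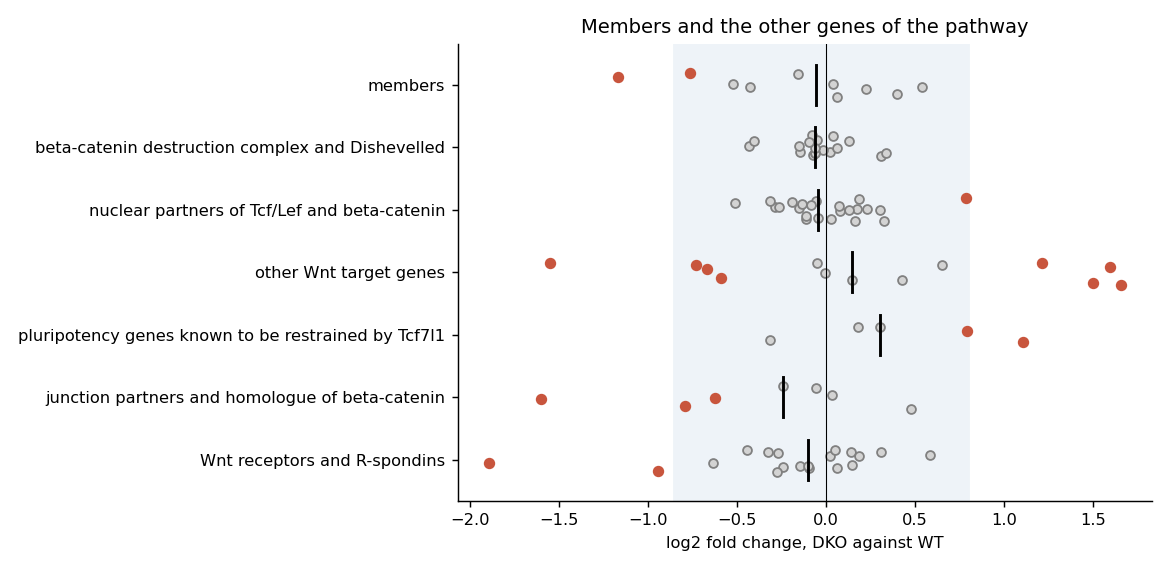
Log2 fold change (DKO against WT) of the 10 genes (top row) and of the tested genes of the 6 pathway lists; red points were called changed, black bars are medians and the shaded band spans the 5th to 95th percentile of all genes. Calls lie on both sides of 0 among the other Wnt targets (4 higher, 4 lower), and the destruction complex has 0 calls.

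Some marker genes of the cell types a culture could hold were called changed between the genotypes. For comparison, 15.4% of all genes tested were called, 7.35% higher and 8.04% lower. Summed primed epiblast markers stood at 105673 to 109456 normalized reads in WT and 102346 to 103766 in DKO. Most of that sum was Dnmt3b (70390 in WT) and Pou5f1 (21846 in WT), so it shows little of the other markers. Among the 6, Sox2 was called higher (277% of WT), and Fgf5 (24.7%) and Pou3f1 (65.1%) were called lower. All 5 tested trophoblast markers of 6 were called higher (summed 372 to 418 in WT and 970 to 1089 in DKO), with Elf5 near 0. All 3 tested primitive streak and mesoderm markers of 4 were called lower (88.8 to 94.4 against 30.1 to 48.9). Eomes, which the paper lists among mesodermal genes, was counted here with the trophoblast markers. It was called higher (305 ± 16.9 normalized reads in WT, 469 ± 21.1 in DKO). Of the fibroblast markers 2 of 6 tested were called lower (summed 1624 to 1689 against 521 to 571), most of the sum being Dcn. Of the extra-embryonic endoderm markers 1 of 5 tested was called higher (60.2 to 90.7 against 89.3 to 105). Of the neural markers 1 of 3 tested was called higher, Pax6, and 1 lower, Sox1 (922 to 936 against 872 to 883). Most of the neural sum was Tubb3 (766 normalized reads in WT). The part of these marker shifts in the levels of Sp5, Axin2 or the other members was not tested.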

How the data were processed

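RNA depleted of rRNA was sequenced from 3 WT and 3 DKO differentiations. The deposited values are a normalized signal made by the authors: reads left after rRNA removal with bowtie2 were aligned to mm10 with STAR, PCR duplicates were removed with SAMtools, reads were counted over gene bodies and divided by DESeq2 size factors. Neither tool versions nor the strand setting of the counter are given in the sources used here, so reads of antisense genes may be included. Every value was a whole multiple of 1 step per library (100% within 0.001 reads). The step was taken as 1 read to recover the reads, with size factors of 1.76 to 1.93. Why all of these factors lay above 1 was not established. A further table by the authors holds their own fold changes and p-values and was not used.

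Of 33812 rows, 138 without a symbol (0.517% of reads) were left out, and 1 row per symbol, that with the highest total, was kept (ties went to the longest exons). Gene positions for the neighbours and the chromosome 6 stretch came from RefSeq. Transcript spans, exon lengths and overlapping genes came from GENCODE M21. WT and DKO were compared with limma 3.58.1 (R 4.3.3) on log2(value + 1), with empirical Bayes moderation, a filter on low reads and Benjamini-Hochberg adjustment. On the recovered reads, the quasi-likelihood test of edgeR 4.0.16 called 2638 genes and DESeq2 1.42.0 called 2475, beside 2623 by limma. The scripts were tested on simulated data. Named genes were the 10 members, Smad2 and Smad3, the called genes of each pathway list (at most 6 by size), untested list genes, the 3 nearest genes on each side of Tcf7l1, the 3 genes most like Sp5 and cell type markers by list. Ccnd1, Nr0b1, Esrrb, Nanog, Jup, Apcdd1 and Myc fall outside this rule and were named after their values were seen. The members and lists were chosen with earlier results of these data known.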

Additional observations from a re-analysis of the deposited data

How the results depend on the processing

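Without the fold threshold 9098 genes were called (4591 higher, 4507 lower), 8 of the 10 members and 56 pathway genes. Tested against the fold of 1.5 itself (limma treat), 1115 were called (524 higher, 591 lower), 1 member and 10 pathway genes. With 1 library left out at a time, 2513 to 2573 genes (1159 to 1241 higher, 1280 to 1357 lower), 2 members and 15 to 18 pathway genes were called. Sp5 and Tcf7l1 were called in all 17 alternative fits of single genes, with adjusted p for Sp5 of 0.00252 to 0.0367, by limma, edgeR or DESeq2. Rnf43 turned to -0.0376 with edgeR and -0.0443 with DESeq2, and ranged from -0.20 to 0.40 with 1 library left out, being negative without WT replicate 1 (-0.07), WT replicate 3 (-0.20) or DKO replicate 3 (-0.07). The mean over both Znrf3 rows was 0.19. Tcf7l1 minus the median of its 14 nearest genes was -0.000903. Per kb of exon the shares of the Tcf/Lef sum differed by -2.24 points for Tcf7, -7.27 for Tcf7l1 and 2.69 for Tcf7l2, DKO minus WT. Among pathway genes, Cdx4 was not called with DESeq2 (1.06), without WT replicate 2 (0.66) or without DKO replicate 2 (1.09), and Myc lay under the fold threshold with a pseudocount of 10 (-0.58) and without WT replicate 1 (-0.54), DKO replicate 1 (-0.58) or DKO replicate 3 (-0.58). The cause of these changes was not tested. Deviations of same-numbered WT and DKO libraries were hardly correlated (0.00881, -0.0293 and 0.0365 over 11930 genes), beside -0.0758 to 0.0730 for differently numbered ones. Whether differentiations of the same number were run together cannot be told from these values. With the replicate block 2602 genes were called, 2586 of them shared. Sp5 and Rnf43 had the fewest reads of the 10 genes, and the parts of depth and of spread between differentiations in their wide intervals were not separated.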
